A study of Mus musculus with 4 samples.

Results

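The 9 genes described here encode the keratins of simple epithelia (Krt7, Krt8, Krt18 and Krt19), the cell adhesion proteins E-cadherin (Cdh1), N-cadherin (Cdh2), liver-intestine cadherin (Cdh17) and Epcam, and the intermediate filament protein vimentin (Vim). They were chosen by name and are 9 of 54532 gene IDs. Total RNA from the fetal pancreas of wild-type C57BL/6 mice was sequenced at E11.5 and E13.5 and then at E15.5 and E18.5 (E, embryonic day), each stage with a single sample (n = 1). The cells are described as epithelium of the pancreas. For their isolation and the number of fetuses in a sample, details were not given in the sources used here. Samples carry no treatment and no allele other than wild type, so the comparisons were between stages.

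Keratins are intermediate filament proteins that assemble as obligate pairs of a type I protein, such as Krt18 or Krt19, with a type II protein, such as Krt7 or Krt8. Krt8 and Krt18 are the general pair of simple epithelia, while Krt7 and Krt19 mark ductal cells in the adult pancreas. E-cadherin joins epithelial cells through adherens junctions and is bound on its inner side by catenins. Epcam is an adhesion protein of epithelial cells, and N-cadherin and vimentin are typical of neural and mesenchymal cells, although epithelial progenitors can also carry them. Repressors of the Snail, Zeb and Twist families lower Cdh1 transcription, and Snail and Zeb proteins do so by binding E-box sequences.

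Promoter sequences were available from RefSeq (build GRCm38.p6) for 5 of the 9 genes, and all 5 are shown because each of these genes passed the rule of size, explained below, in some comparison of stages. Each run gives the 250 bases before the RefSeq start, 5′ to 3′ on the strand of the gene. That start is not always the outer end of the gene coordinates given below, which come from another annotation. The Krt7 and Vim windows lie wholly inside those coordinates, the Krt8 and Krt18 windows in part, and the Epcam window just outside. Capitals mark the E-box CAGGTG, searched on both strands so that it can also read CACCTG, and the TATA box TATAAA, also searched on both strands. The windows are chr15:101412153-101412402 on the plus strand for Krt7, chr15:102004343-102004592 on the minus strand for Krt8, chr15:102027966-102028215 on the plus strand for Krt18, chr17:87635729-87635978 on the plus strand for Epcam and chr2:13574061-13574310 on the plus strand for Vim.
Krt7: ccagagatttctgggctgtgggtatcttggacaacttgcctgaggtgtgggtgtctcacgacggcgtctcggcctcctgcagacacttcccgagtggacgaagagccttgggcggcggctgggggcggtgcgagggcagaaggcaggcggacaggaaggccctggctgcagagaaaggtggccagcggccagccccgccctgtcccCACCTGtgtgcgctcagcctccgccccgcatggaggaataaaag
Krt8: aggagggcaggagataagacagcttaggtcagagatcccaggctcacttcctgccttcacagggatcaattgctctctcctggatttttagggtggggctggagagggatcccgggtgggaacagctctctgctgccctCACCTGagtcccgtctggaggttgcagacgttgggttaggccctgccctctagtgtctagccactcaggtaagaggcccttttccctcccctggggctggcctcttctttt
Krt18: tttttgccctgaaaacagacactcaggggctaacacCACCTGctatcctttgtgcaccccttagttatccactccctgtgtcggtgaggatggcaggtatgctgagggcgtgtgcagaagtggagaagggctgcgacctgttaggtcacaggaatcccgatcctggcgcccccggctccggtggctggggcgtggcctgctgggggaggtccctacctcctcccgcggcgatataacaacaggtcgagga
Epcam: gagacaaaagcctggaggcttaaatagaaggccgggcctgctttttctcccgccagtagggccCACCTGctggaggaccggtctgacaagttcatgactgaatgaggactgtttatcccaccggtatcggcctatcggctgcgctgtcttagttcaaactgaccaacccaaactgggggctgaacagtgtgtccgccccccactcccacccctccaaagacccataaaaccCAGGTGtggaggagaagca
Vim: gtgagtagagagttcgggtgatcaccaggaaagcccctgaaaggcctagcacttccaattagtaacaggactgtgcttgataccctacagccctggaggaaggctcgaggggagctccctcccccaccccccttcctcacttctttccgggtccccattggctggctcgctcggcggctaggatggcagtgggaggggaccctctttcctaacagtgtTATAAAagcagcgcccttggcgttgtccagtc
The E-box began at -44 from the start in Krt7, at -111 in Krt8, at -214 in Krt18, and at -187 and -19 in Epcam, and the Vim window held no match. The TATA box was found at -32 in Vim and not in the other 4. The GC box GGGCGG, searched on both strands and left in lower case, was found 4 times in Krt7 and 1 time in Epcam, and the grainyhead site AACCGGTT, the same on both strands, in none of the 5. Of 32851 mouse promoter windows of this length, 17.2% held the E-box, 12.4% the TATA box, 32.7% the GC box and 0.116% the grainyhead site. These matches are letters in a window and show neither binding nor a cause of the levels below. None of the matches overlapped each other.

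Levels are FPKM (fragments per kilobase of exon, divided by a denominator per library), scaled between stages by median-of-ratios factors of 0.962 to 1.03. Each deposited stage value is the authors' mean, and the values showed that it averages 2 libraries counted in whole reads, which no label states. Estimated depth was 1.37e+07 to 1.80e+07 reads per library. The SD of both libraries (n = 2) follows the ± sign, and library 1 is the one with more reads. Means that no unique pair of whole reads could explain have no SD and no test. That was so for Krt8, Krt18 and Epcam in every stage, for Krt7 at E18.5 and for Vim at E11.5. The labels do not tie the libraries to separate embryos. Hence SDs and p-values reflect the spread of these libraries alone, and it may be technical. As a guide for genes without an SD, the libraries of a stage differed by a median of 1.03 to 1.04-fold over the 738 to 1010 other genes at 50 FPKM or more that could be split, and the 95th percentile was 1.11 to 1.21-fold. By a rule of size, a gene was called higher or lower when the stages were at least 2-fold apart on the log2(scaled FPKM + 1) scale and the higher value was 5 FPKM or more. The verbs rose and fell are used for genes called by limma at an adjusted p of 0.05. Krt7 and Vim, which were recovered at only some stages, were tested in a limma fit added after the data were seen, over genes recovered in both stages compared.

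Between E11.5 and E13.5 the epithelial genes Cdh1, Krt7, Krt8 and Epcam were higher and Cdh2 and Vim were lower, while Krt18 and Krt19 did not pass the rule of size. Of the 9 genes, 8 reached 1 FPKM in some stage and were measured. Thus 4 of 8 were higher, beside 5.77% of the 14841 measured genes, and 2 of 8 were lower, beside 5.73%. The median difference of the 8 genes was 1.02 on the log2 scale, against -0.03 for all measured genes. Limma tested 3 of them, and 1 rose and 2 fell, beside 31.4% and 37.2% of 13479 genes tested. In the added fit, 2 of 4 rose and 2 fell, where 31.8% of 13628 genes rose and 37% fell. In bulk samples, fewer cells of a type and less RNA per cell cannot be told apart, which touches every difference from E11.5 given here.

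By the rule of size, later steps moved fewer of these genes. Limma called most of those tested at every step, but it also called most of all genes tested. From E13.5 to E15.5 only Krt18 of the 8 was higher by the rule of size, beside 3.64% of measured genes, and 0 were lower, beside 1.48%. The median was -0.03 for the 8 genes and 0 for all genes. Limma called 2 of 3 tested (1 rose, beside 29.1%, and 1 fell, beside 27.2%), and the added fit called 5 of 5 (2 rose, beside 29.2% of genes, and 3 fell, beside 27.4%). From E15.5 to E18.5 Krt7 and Krt19 were higher, 2 of 8 beside 6.29%, and 0 were lower, beside 5.55%, with medians of 0.41 for the 8 genes and 0.04 for all genes. Limma called 3 of 3 (2 rose, beside 38.2%, and 1 fell, beside 30.6%), and the added fit 4 of 4 (3 rose, beside 38.1%, and 1 fell, beside 30.9%). Over the span from E13.5 to E18.5 Krt7, Krt18 and Krt19 were higher, 3 of 8 beside 5.34%, and 0 were lower, beside 3%, with medians of 0.39 and 0.06. Limma called 3 of 3 there (3 rose, beside 36.1%, and 0 fell, beside 24.6%), and the added fit 4 of 4 (3 rose, beside 36.1%, and 1 fell, beside 24.9%). These comparisons share samples with each other, so their values stand side by side only.

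The choice of scaling bears on these counts. Acinar markers summed to 6.10 FPKM at E11.5 and 60561 at E15.5. With each sample set to the same total FPKM the median of all genes moved from 0 to -0.41 (log2) between E13.5 and E15.5. Under that scaling 192 genes were higher and 1380 lower, instead of 540 and 219. With the most abundant genes left out of the total the numbers were 370 and 375. For E13.5 against E11.5 the same-total scaling gave 807 higher and 1209 lower (857 and 851 in the main analysis, median -0.16). For E18.5 against E15.5 it gave 1063 and 539 (933 and 823, median 0.14), and 1150 and 577 without the most abundant genes. For E18.5 against E13.5 it gave 484 and 1193 (793 and 445, median -0.24).

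**Figure D1:**
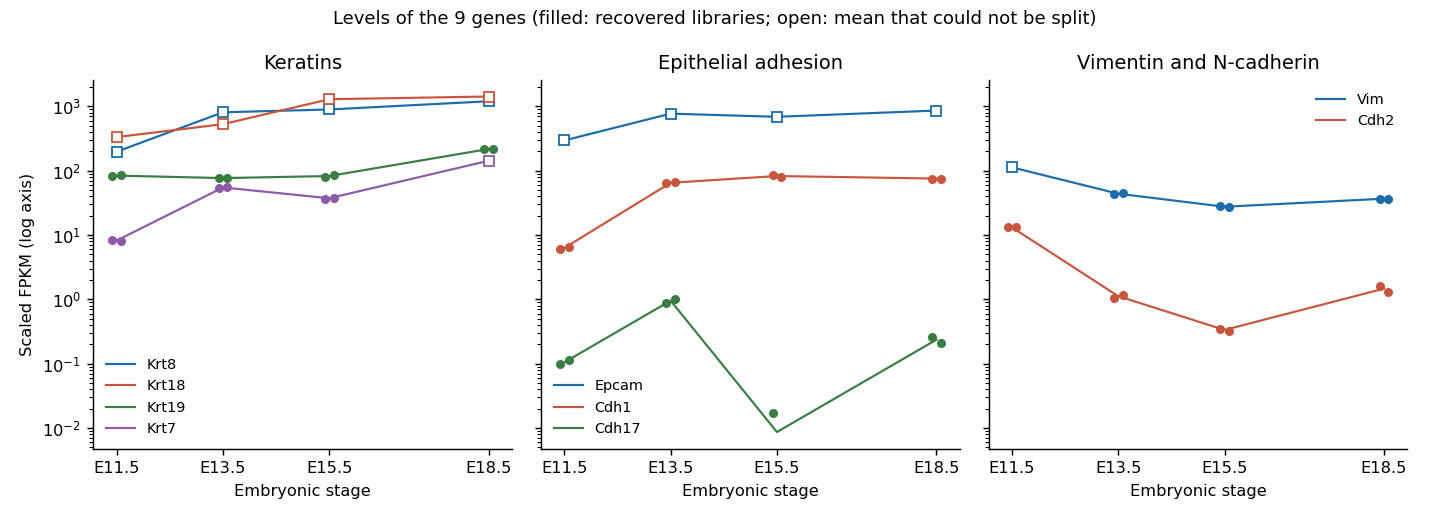
Scaled FPKM (log axis) of the 9 genes against embryonic stage, in panels for keratins, epithelial adhesion genes, and Vim with Cdh2. Filled points are the 2 recovered libraries of a stage, open squares are stage means that could not be split, lines join the stage means, and the Cdh17 library with 0 reads at E15.5 cannot be drawn on a log axis. Krt8 and Krt18 reach 1197 and 1418 FPKM at E18.5, and Cdh2 is highest at E11.5.

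Krt8 (ENSMUSG00000049382, mm10 chromosome 15, 101996698 to 102004482, minus strand), the general type II keratin of simple epithelia, was listed at 197, 806, 892 and 1197 FPKM in order of stage. The step from E11.5 to E13.5, of 4.09-fold, exceeded the spread between libraries of other abundant genes, while the later steps stayed under 2-fold (log2 differences of 0.15 and 0.42). Of the 1909 windows of 50 bases in Krt8 transcripts, 29.7% also occur in other genes, mostly in the pseudogene Krt8-ps, so the level of Krt8 is uncertain. Krt8-ps itself was listed at 1.11 ± 0.395 FPKM at E11.5 and between 3.06 and 4.75 later. Krt8 also shares 101 exon bases with Gm36026 on the opposite strand, which was at 0.117 to 1.33 FPKM, and no source used here says whether the counting used strand.

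Krt18 (ENSMUSG00000023043, chromosome 15, 102028180 to 102032027, plus strand), the type I partner of Krt8, lies 23697 bases from it. It was listed at 332, 527, 1286 and 1418 FPKM from E11.5 to E18.5, so the earlier pair of stages lay far below the later pair. The largest step was from E13.5 to E15.5, of 2.44-fold (log2 difference 1.29), where Krt8 differed by a log2 of only 0.15. With each sample set to the same total FPKM the Krt18 step was 0.66 and no longer passed the rule of size, and the Krt8 difference was -0.48, both against a median of -0.41 for all genes. The step from E11.5 to E13.5, of 1.59-fold, did not pass the rule. Over E13.5 to E18.5 Krt18 was 2.69-fold higher (log2 difference 1.43), which became 0.97 and no longer passed under the same-total scaling.

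The balance of these partners therefore differed between stages. The ratio of Krt8 to Krt18 was 0.593, 1.53, 0.693 and 0.844 in order of stage, a measure that no scaling between stages can alter. By the listed levels, only at E13.5 was the type II partner the more abundant transcript. Summed over type II (Krt8 and Krt7) and type I (Krt18 and Krt19), the ratio was 0.494, 1.43, 0.679 and 0.819, with the same order of stages. These ratios have no replicate error, and the reads that Krt8 may share with its pseudogene enter each of them.

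**Figure D2:**
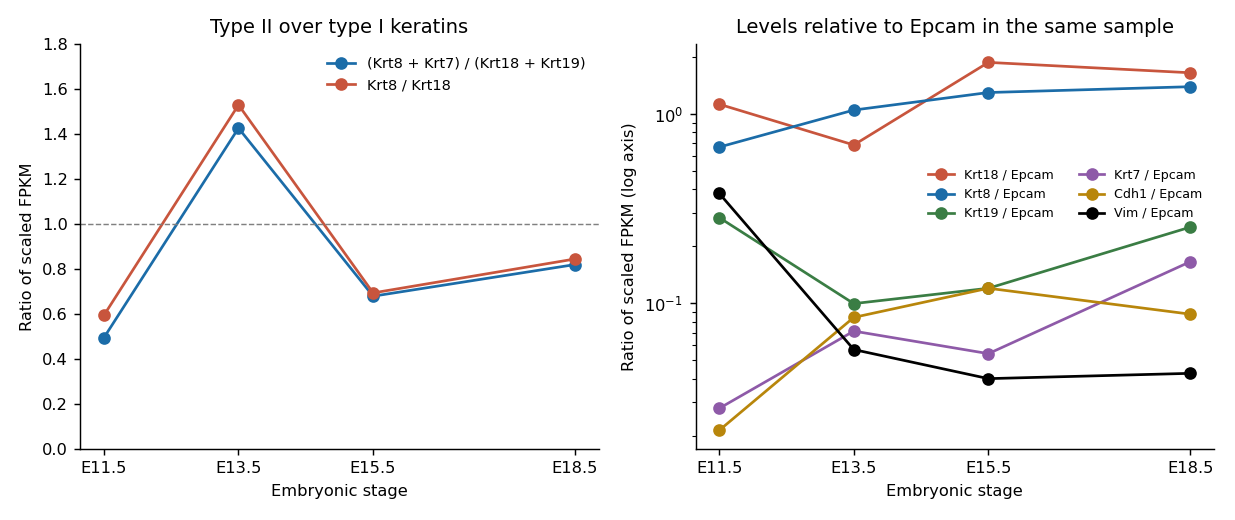
Left, the ratio of type II to type I keratin levels by stage, with a dashed line at equal levels. It is drawn as the sum of Krt8 and Krt7 over Krt18 and Krt19 and as Krt8 over Krt18. By the listed levels both ratios exceed 1 at E13.5 alone. Right, levels of Krt18, Krt8, Krt19, Krt7, Cdh1 and Vim relative to Epcam of the same sample (log axis), where Cdh1 goes from 0.0213 at E11.5 to 0.0843 at E13.5 and Vim from 0.382 to 0.0570.

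Krt19 (ENSMUSG00000020911, chromosome 11, 100140810 to 100148665, minus strand), a type I keratin of ducts and early epithelial progenitors, was at nearly the same level until E15.5. Its libraries stood at 83.1 and 84.2 FPKM (E11.5), 75.5 and 77.5 (E13.5), 80.3 and 84.5 (E15.5), and 214 and 220.2 (E18.5). The E18.5 libraries were far above all others, and those of E11.5 and E15.5 overlapped. Krt19 rose 2.63-fold from E15.5 to E18.5 (limma log2 difference 1.39, adjusted p = 1.16e-06, higher in 2 of 2 libraries), and 2.83-fold over E13.5 to E18.5 (limma log2 difference 1.49, adjusted p = 1.03e-06). From E11.5 to E13.5 it fell by 0.13 on the log2 scale (limma adjusted p = 0.0227), a call lost when either E11.5 library or library 1 of E13.5 was left out, without the mean-variance trend and without scaling factors. From E13.5 to E15.5 the difference of 0.11 missed the threshold (limma adjusted p = 0.0534), but passed it without library 1 of E15.5 and in the added fit, and under the same-total scaling Krt19 fell.

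Krt7 (ENSMUSG00000023039, chromosome 15, 101411043 to 101430313, plus strand), a type II keratin of ductal epithelium, was lowest at E11.5 and highest at E18.5. Its libraries stood at 8.39 and 8.02 FPKM (E11.5), 54.0 and 55.6 (E13.5), and 36.3 and 38.1 (E15.5), and the E18.5 mean was 142. The recovered libraries of different stages did not overlap. It rose 6.68-fold from E11.5 to E13.5 (limma, added fit, log2 difference 2.60, SE 0.04, adjusted p = 5.92e-07). It fell by 0.55 on the log2 scale from E13.5 to E15.5 (limma, added fit, adjusted p = 0.000305), and was 3.83-fold higher at E18.5 than at E15.5, with no test. With each sample set to the same total FPKM, the difference from E13.5 to E15.5 was -1.16 and passed the rule of size, and that from E13.5 to E18.5 was 0.92 and did not (1.36 in the main analysis). Gm671, on the opposite strand with 77 shared exon bases, was at 0.356 to 2.81 FPKM.

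The ductal keratins differed most at E11.5. The ratio of Krt7 to Krt19 was 0.0981 ± 0.00410, 0.716 ± 0.00193, 0.451 ± 0.000173 and, without an SD, 0.657 in order of stage. Both were higher at E18.5 than at E15.5, a step at which Krt8 and Krt18 differed by 0.42 and 0.14 on the log2 scale. Duct and trunk markers summed to 332, 4697, 2060 and 17401 FPKM over the same stages, but from E13.5 on most of this was the osteopontin gene Spp1, at 52.0, 4415, 1741 and 16965. Without Spp1, left out after the values were seen, the other 10 summed to 279.9, 281, 319 and 436. Car2 alone held 207 of the E11.5 sum, and it was lower at E13.5 (log2 difference -5.72). The near equality of the first 2 sums therefore hides changes of single genes. Of the whole list, 6 of 10 measured were higher at E13.5 than at E11.5 and 1 lower, beside 5.77% and 5.73% of measured genes. Of the duct and trunk list 4 of 10 measured were higher at E18.5 than at E15.5 and 0 lower, beside 6.29% and 5.55% of measured genes. Such a step was not particular to this list. Of 13 endocrine markers measured, 13 were higher and 0 lower, and their sum went from 2759 to 30182 FPKM. Of 12 acinar markers, 2 were higher and 6 lower. The part of these cell types in the keratin levels was not tested.

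These 4 keratins made up nearly all keratin transcripts. Of 53 keratin genes, 14 reached 1 FPKM in any stage, and the 4 described held 92.9%, 98.2%, 98.9% and 95.6% of the summed keratin level from E11.5 to E18.5. Keratins together took 0.217% of all FPKM at E11.5 and 0.672% at E18.5. Among 9 other keratins measured from a list of 15, 2 were lower at E13.5 than at E11.5 and 0 higher, beside 5.73% and 5.77% of measured genes. At E18.5, 2 were higher than at E15.5 and 0 lower, beside 6.29% and 5.55%. The lower ones were keratins of stratified and basal epithelium: Krt14, at 8.23 ± 0.315 FPKM and then listed at 0, and Krt15, at 11.8 ± 0.665 and 1.61 ± 0.0513. The higher ones were Krt23, at 9.22 FPKM at E15.5 and 111 ± 1.47 at E18.5, and Krt17, at 0.705 ± 0.147 and 9.36 ± 0.325. At the first step Krt17 also went down, from 3.43 ± 0.169 FPKM at E11.5 to 0.127 ± 0.0364 at E13.5. Its E11.5 level lay below the 5 FPKM that the rule of size asks for. Krt23 was thus the fifth keratin by level at E18.5, after the 4 described.

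Keratin filaments end at desmosomes, whose components also differed between stages, mostly by less than 2-fold. Of 13 measured genes of desmosomes and keratin linkers, 1 was higher and 0 were lower from E11.5 to E13.5 by the rule of size. That was near the share of all measured genes, 5.77% and 5.73%. In limma 10 rose and 1 fell, beside 31.4% and 37.2% of genes tested (median log2 difference 0.57, against -0.03 for all genes). From E13.5 to E15.5, 2 were higher and 0 lower, beside 3.64% and 1.48%. In limma 8 rose and 0 fell at that step, beside 29.1% and 27.2%. Dsg2, the desmosomal cadherin of simple epithelia, stood at 0.955 ± 0.00297, 5.91 ± 0.383, 11.9 ± 0.176 and 7.29 ± 0.437 FPKM. Perp, a desmosomal membrane protein, stood at 7.74 ± 0.189, 12.9 ± 0.0634, 35.6 ± 2.69 and 30.4 ± 0.352. Both were highest at E15.5, whereas Krt18 was highest at E18.5, at 1418 FPKM against 1286 at E15.5. From E15.5 to E18.5 limma called 5 of the 13 that rose and 6 that fell, beside 38.2% and 30.6% of genes tested. The rises were thus near the share of all genes.

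Epcam (ENSMUSG00000045394, chromosome 17, 87635979 to 87651129, plus strand) was listed at 294, 768, 686 and 858 FPKM in order of stage. The E11.5 level was well below the other 3, which did not differ among themselves by the rule of size. The first step was 2.61-fold (log2 difference 1.38), and the later ones were -0.16 and 0.32 on the log2 scale. Because Epcam is carried by the epithelial cells, the other genes were also set against it within each sample.

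Most genes that act with Epcam were higher at E13.5 as well. Of 8 measured partners and members of its matriptase pathway, 6 were higher and 1 lower at E13.5 than at E11.5 (median log2 difference 1.45). The shares over all measured genes were 5.77% and 5.73%. Of 6 tested limma called 5 that rose and 1 that fell, beside 31.4% and 37.2% of genes tested. Spint2, which inhibits the protease that cleaves Epcam, was at 85.4 ± 0.327 FPKM at E11.5 and at 349, 518 and 389 later. Cldn7, a tight junction protein that binds Epcam, was at 53.9 ± 0.858, 198, 249 ± 3.76 and 253. Tspan8, a tetraspanin, was at 3.76 ± 0.304, 13.9 ± 0.777, 0.923 ± 0.114 and 18.6 ± 0.425, with its low at E15.5.

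Cdh1 (ENSMUSG00000000303, chromosome 8, 106603351 to 106670246, plus strand) had, together with Cdh2, the largest first step of the 9 genes. The Cdh1 step was the larger with a pseudocount of 1, at 3.17 against -2.74 on the log2 scale, and the Cdh2 step with a pseudocount of 0.1, at 3.34 against -3.44. Its libraries stood at 6.02 and 6.53 FPKM (E11.5, from 505 and 535 reads), 63.2 and 66.2 (E13.5), 84.1 and 80.7 (E15.5), and 75.0 and 75.4 (E18.5). The E11.5 libraries were far below all others, and no libraries of different stages overlapped. Cdh1 rose 10.3-fold from E11.5 to E13.5 (limma log2 difference 3.17, SE 0.05, adjusted p = 6.48e-08). It rose by a further 0.34 from E13.5 to E15.5 (limma adjusted p = 0.00107), but with each sample set to the same total FPKM the difference was -0.27 and the limma call turned to a fall. The same held for E18.5 against E13.5, at 0.21 (limma adjusted p = 0.00722) and -0.23. From E15.5 to E18.5 it fell by 0.13 on the log2 scale (limma adjusted p = 0.0435), a call lost when any library of E13.5, E15.5 or E18.5 was left out, without the trend, with a pseudocount of 0.1 and under the same-total scaling. The difference itself turned to 0.04 under that scaling, with or without the most abundant genes in the total. Relative to Epcam in the same sample, Cdh1 stood at 0.0213, 0.0843, 0.120 and 0.0877 in order of stage, so the Cdh1 step was larger than that of Epcam.

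Cdh2 (ENSMUSG00000024304, chromosome 18, 16588877 to 16809246, minus strand) had the opposite pattern. Its libraries stood at 13.2 and 13.1 FPKM (E11.5, from 1946 and 1891 reads), 1.06 and 1.18 (E13.5), 0.346 and 0.322 (E15.5, from 36 and 29 reads), and 1.61 and 1.32 (E18.5). The E11.5 libraries were the highest and those of E15.5 the lowest, with no overlap between stages. Cdh2 fell 11.7-fold from E11.5 to E13.5 (limma log2 difference -2.74, SE 0.08, adjusted p = 5.17e-07) and by 0.67 on the log2 scale from E13.5 to E15.5 (limma adjusted p = 0.000496). It then rose by 0.88 to E18.5 (limma adjusted p = 8.13e-05), a step below 2-fold on that scale and at a low level. As plain ratios of levels, like the 11.7-fold above, the steps into and out of E15.5 were 3.35-fold down and 4.39-fold up. The rise of 0.22 from E13.5 to E18.5 (limma adjusted p = 0.0444) was lost when any library other than library 2 of E18.5 was left out, without scaling factors and under the same-total scaling, where the difference turned to -0.04. The ratio of Cdh1 to Cdh2 was 0.478 ± 0.0292, 57.8 ± 2.64, 247 ± 5.53 and 51.3 ± 7.54 in order of stage. N-cadherin was the more abundant transcript of the pair only at E11.5.

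Cdh17 (ENSMUSG00000028217, chromosome 4, 11758147 to 11817895, plus strand), a cadherin of liver and intestine, stayed below 1 FPKM in every stage. The recovered reads of its libraries were 8 and 9 (E11.5), 76 and 77 (E13.5), 1 and 0 (E15.5), and 15 and 12 (E18.5). Its level at E13.5 was 9.05-fold that at E11.5 (exact 95% binomial interval 5.47 to 15.9) and 4.03-fold that at E18.5 (2.66 to 6.31). With the single read at E15.5, the ratio of E13.5 to E15.5 was 102 (18.1 to 4061). These intervals cover counting error only. Cdh17 therefore had its highest level at E13.5, where it was 0.954 ± 0.0921 FPKM, but entered no count of higher or lower genes.

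From E13.5 on no other cadherin came near the level of Cdh1, but at E11.5 several did. Of 23 cadherin genes (Cdh with a number), 9 reached 1 FPKM in any stage, and the 3 described here held 35.5% of the summed level at E11.5 and 80.5%, 90.3% and 86.4% later. P-cadherin (Cdh3), an epithelial cadherin, was at 10.5 ± 0.448, 9.62 ± 0.0613, 4.02 ± 0.448 and 4.20 ± 0.263 FPKM, and thus above Cdh1 at E11.5. Cdh6, at 7.18 ± 0.330 FPKM, was also above Cdh1 there, and Cdh4, at 5.49 ± 0.167, was just below it. From E13.5 on Cdh3 and Cdh6 were both above Cdh2. Of 14 measured other cadherins, 3 were lower and 0 higher at E13.5 than at E11.5, beside 5.73% and 5.77% of measured genes. The 3 were Cdh11, Cdh4 and Cdh6, which are known from mesenchymal cells, neural cells and kidney, in that order. Cdh11, for instance, was at 5.25 ± 0.140 and 0.238 ± 0.0296. Of 12 catenins and nectins, 0 were higher and 1 lower at that step, beside 5.77% and 5.73% of measured genes. The lower one was the neural catenin Ctnna2, at 8.06 ± 0.0614 and 0.287 ± 0.0646. The beta-catenin gene Ctnnb1 stayed between 65.8 and 74.0 FPKM in all 4 stages, including E11.5, where Cdh1 was at 6.28.

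Regulators of E-cadherin differed at the same step. Of 8 repressors of E-cadherin measured, 2 were lower and 0 higher at E13.5 than at E11.5, beside 5.73% and 5.77% of measured genes. In limma 7 fell and 0 rose (median log2 difference -1.37), beside 37.2% and 31.4% of genes tested. The 8 repressors summed to 44.8 FPKM at E11.5 and to 5.18, 5.66 and 5.27 later. Snai2 was at 16.7 ± 0.282 and 1.95 ± 0.228 FPKM at E11.5 and E13.5, and Twist1 at 14.7 ± 0.786 and 0.105 ± 0.0574. Zeb1 and Zeb2 were at 2.31 ± 0.0375 and 3.34 ± 0.0696 at E11.5 and both under 1 later. Of 11 epithelial transcription and splicing factors, 5 were higher and 0 lower at E13.5, beside 5.77% and 5.73% of measured genes. Of 10 tested by limma 8 rose and 1 fell (median 0.85), beside 31.4% and 37.2% of genes tested. Elf3, an Ets factor of epithelia, was at 6.15 ± 0.0321, 35.1 ± 0.0147, 38.0 ± 0.855 and 34.0 ± 1.18 FPKM. The splicing factor Esrp2 was at 1.58 ± 0.145 FPKM at E11.5 and between 10.3 ± 1.72 and 10.9 later, and the Ets factor Ehf was at 0.0839 ± 0.0336, 6.10 ± 0.150, 12.4 ± 0.0431 and 31.3 ± 0.263. Ehf, unlike Elf3, was higher again at E18.5 than at E15.5 by the rule of size, as Krt7 and Krt19 were.

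**Figure D3:**
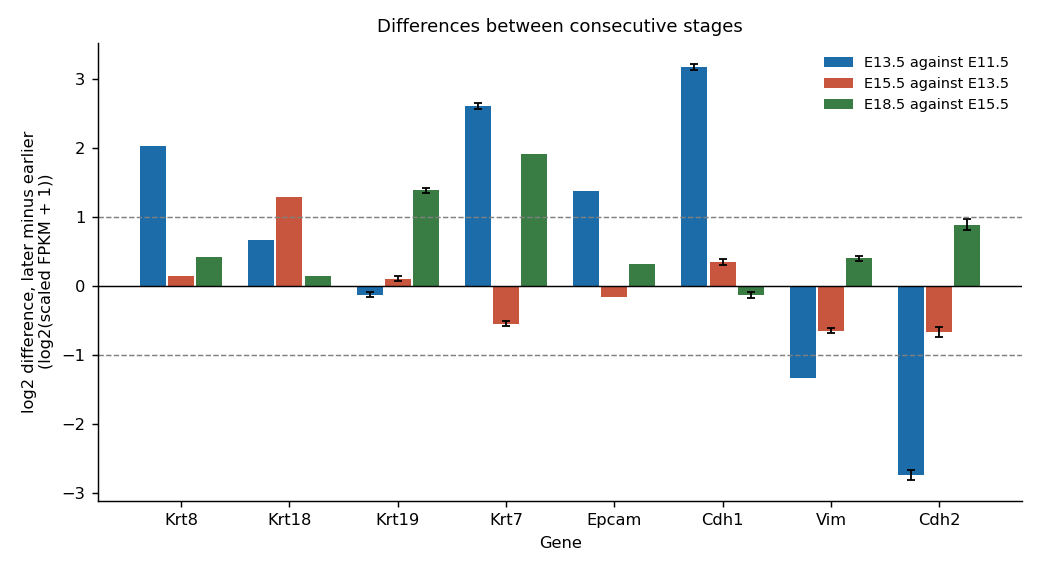
Differences between consecutive stages on the log2(scaled FPKM + 1) scale for 8 of the 9 genes (Cdh17 lay below 1 FPKM). Bars are later minus earlier stage, error bars are limma standard errors (n = 2 libraries per stage) where the gene could be split, and dashed lines mark 2-fold; the bars of Cdh1, at 3.17, and Cdh2, at -2.74, for E13.5 against E11.5 are the longest in each direction.

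Vim (ENSMUSG00000026728, chromosome 2, 13573927 to 13582826, plus strand), the type III intermediate filament protein of mesenchyme, neural progenitors and blood cells, was highest at E11.5. It was listed at 112 FPKM there, and its libraries stood at 43.0 and 44.5 (E13.5), 28.0 and 26.9 (E15.5), and 36.7 and 36.6 (E18.5). The recovered libraries of different stages did not overlap, and E15.5 was the lowest. Vim was 2.57-fold lower at E13.5 than at E11.5 (log2 difference -1.34, no test). It fell by 0.65 on the log2 scale from E13.5 to E15.5 (limma, added fit, SE 0.04, adjusted p = 0.000103), which became -1.26 and passed the rule of size with each sample set to the same total FPKM. It rose by 0.40 from E15.5 to E18.5 (limma, added fit, adjusted p = 0.000303), and over E13.5 to E18.5 it fell by 0.25 on the log2 scale (limma, added fit, adjusted p = 0.0024). Relative to Krt8 in the same sample, Vim stood at 0.570, 0.0543, 0.0308 and 0.0306 from E11.5 to E18.5. The Vim ratio to Krt8 was thus nearly the same at the last 2 stages, although Vim rose between them.

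Other intermediate filament genes were also lower after E11.5. Of 11 measured, 5 were lower and 0 higher at E13.5 than at E11.5, beside 5.73% and 5.77% of measured genes. Among the lower ones were the neuronal Nefl, at 189 and 0.784 ± 0.0801 FPKM, and Ina, at 104 and 0.221 ± 0.153. Vim was therefore not alone among non-keratin filaments, but it kept a higher level than the neuronal ones at E13.5. The nuclear lamin genes differed: Lmna was at 9.32 ± 0.306, 18.3 ± 1.30, 27.6 ± 1.34 and 40.7 ± 0.778 FPKM, and rose at each of the 3 steps in limma (adjusted p = 1.95e-05, 0.00035 and 0.000244). Lmnb1 was at 20.4 ± 0.384, 20.1 ± 0.644, 18.6 ± 0.318 and 7.04 ± 0.126, and fell from E15.5 to E18.5 (limma log2 difference -1.29, adjusted p = 1.7e-06).

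Markers of most other cell types differed in the same direction as Vim and Cdh2 between E11.5 and E13.5. Over all measured genes, 5.73% were lower and 5.77% higher at that step by the rule of size. In limma 37.2% of genes tested fell and 31.4% rose at that step. By the rule of size 5.34% of measured genes were higher at E18.5 than at E13.5. Mesenchyme markers without Isl1, which endocrine cells also carry, summed to 119, 7.21, 21.7 and 50.3 FPKM from E11.5 to E18.5; with Isl1, 8 of 13 measured were lower at E13.5 than at E11.5 and 0 higher, and 5 were higher at E18.5 than at E13.5. Of the 14 mesenchyme genes 13 were at 1 FPKM or more at E11.5 and 3 at E13.5, where Tbx18 was listed at 0. Neuron, neural crest and glia markers, led by Tubb3, summed to 745, 24.2, 12.8 and 54.9, with 6 of 10 measured lower at E13.5 and 0 higher. Mesothelium markers summed to 34.7, 2.35, 0.970 and 3.59, with 2 of 5 lower and 0 higher. Erythroid markers summed to 9669 at E11.5 and 257 at E13.5. Leukocyte markers summed to 89.6, 20.2, 194 and 119, of which the complement gene C1qa made up 176 ± 1.32 at E15.5. Without C1qa, left out after the values were seen, the other 9 summed to 84.5, 6.89, 18.1 and 52.4, highest at E11.5, and of 8 in the whole list tested by limma 7 fell from E11.5 to E13.5 and 1 rose. Of 10 endothelium markers 9 were below 1 FPKM in every stage, and the exception, Egfl7, was at 4.30 ± 0.506 to 18.6 ± 0.677. Between E15.5 and E18.5 the mesenchyme and neural sums and Vim and Cdh2 were all higher. The part of these cell types in the levels of Vim, Cdh2, Krt14, Krt15 and the repressors was not tested, and neither was their part in the E11.5 levels of Cdh1, Krt7, Krt8 and Epcam.

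**Figure D4:**
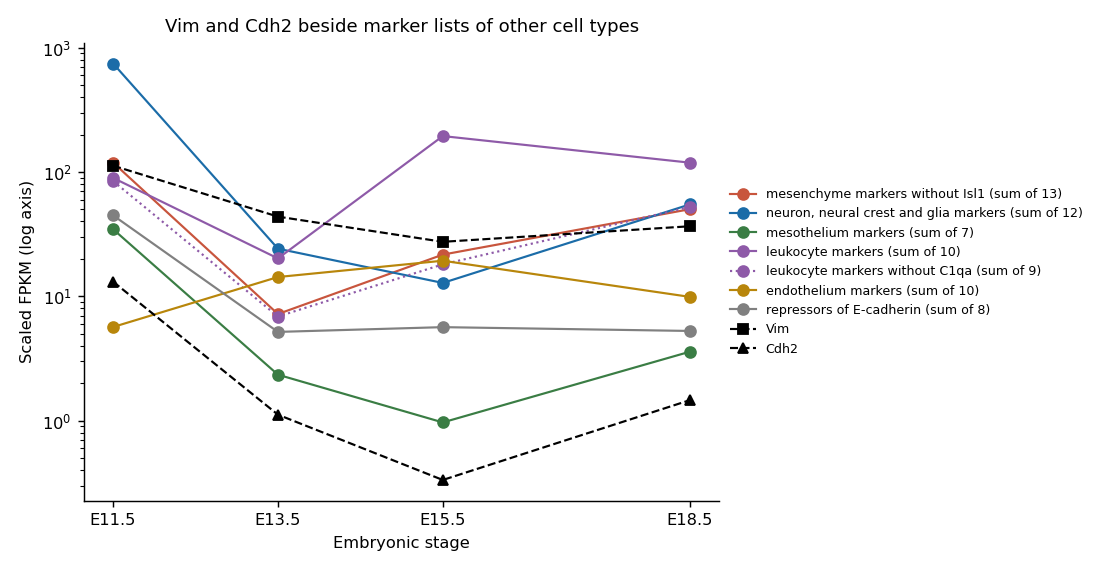
Vim and Cdh2 (dashed, black) and the summed levels of marker lists of other cell types and of the repressors of E-cadherin, in scaled FPKM on a log axis, by stage. Vim, Cdh2 and the mesenchyme, neural, mesothelium and repressor sums are highest at E11.5, as is the leukocyte sum without C1qa (dotted), at 84.5 FPKM; with C1qa it is highest at E15.5, at 194.

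In order of level, Krt18, Epcam and Krt8 were the first 3 of the 9 genes in each stage, in varying order. At E11.5 they were followed by Vim, Krt19, Cdh2, Krt7, Cdh1 and Cdh17, so that Cdh2 and Krt7 stood above Cdh1. At E13.5 they were followed by Krt19, Cdh1, Krt7, Vim, Cdh2 and Cdh17, at E15.5 by Cdh1, Krt19, Krt7, Vim, Cdh2 and Cdh17, and at E18.5 by Krt19, Krt7, Cdh1, Vim, Cdh2 and Cdh17. Cdh1 at 82.4 ± 2.37 and Krt19 at 82.4 ± 2.94 did not differ beyond their spread at E15.5. Krt18 was 1.13-fold above Epcam at E11.5 and Krt8 1.05-fold above Epcam at E13.5, both under the 95th percentile of the spread between libraries of other abundant genes. Cdh2, at 1.12 ± 0.0880 FPKM, and Cdh17, at 0.954 ± 0.0921, lay close to each other at E13.5. The order also rests on the gene lengths, since the deposited values fit the summed exon length of all transcripts, which is 2.16 times that of the principal transcript for Vim and 1.72 times for Krt7. Per principal length, Vim would stand at 243 FPKM at E11.5, above Krt8 at 197. At E13.5 Vim, at 94.6, and Krt7, at 94.3, would both stand above Krt19 at 90.1 and Cdh1 at 66.8. At E18.5 Vim, at 79.2, would stand slightly above Cdh1 at 77.7. The place of Vim below the epithelial genes after E11.5 thus depends on the length used.

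Genes with the most similar course were sought over 5582 genes that reached 10 FPKM in some stage, by the root mean square distance between log2 profiles centred over the 4 stages. With 4 stages close profiles are easily found, so this is a description. For Krt8 the nearest was Fermt1, an integrin activator of epithelia, at 1.82, 10.2, 12.4 and 16.8 FPKM (distance 0.047), followed by Ttyh1 and Sdc4. For Krt18 it was Macrod1, at 9.94, 17.0, 48.0 and 49.5 (0.079), followed by Chchd10 and Smim14. Krt7 was nearest to Cebpd, at 1.47, 14.5, 9.94 and 34.3 (0.081), then Atp2a3, and Krt19 to Atp9a, Stap2 and Dusp5. For Cdh1 the nearest was Ttr, which encodes transthyretin, at 44.4, 321, 533 and 491 (0.164), followed by Tmem221 and Rap1gap2. Epcam was nearest to Tm9sf3, Cldn23 and Acot1, and Vim to Rnf122, Ttc3 and Ckap4. Cdh2 was nearest to Akr1b8, at 23.2, 2.80, 1.24 and 3.07 (0.044), and Ccser2 was also among its first 3. Cdh17, whose low level flattens its profile on this scale, was nearest to Bid, Tsr1 and Pnck. No gene was among the first 3 for more than 1 of the 9.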

How the data were processed

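The deposited RNA sequencing values are FPKM for each Ensembl gene, 1 file for each of 4 stages, and per the file headers they are averages. Per the submitters' processing notes, HISAT2 2.0.5 and the mm10 build were used. The counting tool, the annotation and the number of averaged libraries were not given in the sources used here. GENCODE M21 gave symbols (for 54495 of 54532 IDs), coordinates and exon lengths, and RefSeq the promoters.

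Stages were scaled by median-of-ratios factors from the 9884 genes that reached 1 FPKM in each stage. Differences are on the log2(scaled FPKM + 1) scale, which understates changes of low genes, over the 14841 genes that reached 1 FPKM in some stage. With 1 sample per stage the stage means had no test. FPKM multiplied by exon length was split into whole reads of 2 libraries per stage where only 1 pair fitted within 1 last printed place and at most 0.05 pairs were expected by chance. For genes of 1000 reads or more, pairs were limited to libraries at most 2-fold apart. Of the IDs attempted, 96.3% to 96.5% were split, 854 to 898 had no pair, and 289 to 431 were not attempted. The estimated denominators were not plain read totals. The recovered libraries of 13479 genes were tested by limma 3.58.1 (R 4.3.3, mean-variance trend, Benjamini-Hochberg, threshold 0.05). Both procedures were tested on simulated data. Scaling, pseudocount, minimum, fold, trend and left-out libraries were varied.

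The 9 genes, the gene lists and the tests were chosen with earlier results of these data known. Besides the 9 genes, the text names the 3 nearest profiles of each, and from each list up to 3 genes in each direction with the largest difference past the rule of size per comparison and the 2 highest. Zeb1, Zeb2 and Tbx18 were named outside this rule after their values were seen, and not every gene the rule took is described. Values of 2 genes that the rule took are not reported here. Counting intervals cover counting error only.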

Additional observations from a re-analysis of the deposited data

How the results depend on the processing

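The 32 log2 differences of the 8 measured genes were recomputed under 5 other settings of scaling and pseudocount. Of these 160 values, 150 kept their direction and 10 turned, 7 with each sample set to the same total FPKM and 3 with the most abundant genes left out of that total. The 10 are Krt8, Krt19 (both under both scalings) and Cdh1 for E15.5 against E13.5, Cdh1 (both scalings) for E18.5 against E15.5, and Cdh1, Cdh2 and Epcam for E18.5 against E13.5, and none of them passed the rule of size under either setting. The side of the rule of size changed in 5 other values, all under the same-total scaling. There Krt7 and Vim passed the rule as lower at E15.5 than at E13.5, while Krt18 did not pass for E15.5 against E13.5, nor Krt7 and Krt18 for E18.5 against E13.5. The number of the 9 genes higher at E15.5 than at E13.5 was then 0 instead of 1, the number lower was 2 instead of 0, and the number higher at E18.5 than at E13.5 was 1 instead of 3. With a fold of 1.5 the number lower at E15.5 than at E13.5 was 1, namely Vim. The number called by limma for E15.5 against E13.5 was 5 instead of 2 over genes recovered in both stages compared, since Krt7 and Vim then entered and Krt19 passed. For E18.5 against E13.5 it was 1 instead of 3 without scaling factors. When each library was left out in turn, limma called 2 to 3 of the genes in each of the 4 comparisons; a stage left with 1 library is assumed to vary like the others. Over all genes, a pseudocount of 5 gave 529 higher and 556 lower for E13.5 against E11.5, 334 and 95 for E15.5 against E13.5, 496 and 495 for E18.5 against E15.5, and 481 and 243 for E18.5 against E13.5. Without a minimum on the higher value the numbers were 1294 and 1699, 762 and 348, 1426 and 1109, and 1261 and 625, and with a fold of 1.5 they were 1633 and 1520, 1299 and 793, 1765 and 1695, and 1506 and 1107. No paired analysis was possible because the labels give 1 sample per stage and no replicate numbers. Depth limits Cdh17 in every stage and Cdh2 at E15.5.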
